A study of Mus musculus with 188 samples.

Results

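The CXC chemokines are small secreted proteins that steer leukocytes, and 8 of their genes were followed here through mouse organotypic brain-slice cultures (BSC) that had been exposed to heme or hemoglobin (Hb), with or without a scavenger protein. The members were the rows of the count files whose Ensembl identifiers belong to Cxcl1, Cxcl2, Cxcl5, Ppbp, Cxcl10, Cxcl12, Cxcl14 and Cxcl16, which are 8 of the 25711 gene identifiers of the series. All 8 were listed in every library and all 8 passed the filter on low counts. Heme-albumin at 200 and 400 μM raised Cxcl1, Cxcl2 and Cxcl10 and lowered Cxcl16. With heme bound to hemopexin (hemeHpx), Ppbp alone among the 8 was called higher by the main test (edgeR), but not by DESeq2. At 48 h Ppbp was also higher with Hb at the higher dose, with the hemoglobin-haptoglobin complex (HbHp) and with haptoglobin (Hp) by itself, against controls with few Ppbp reads.

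Chemokines of the CXC class act on G protein-coupled receptors and form gradients that cells follow. Cxcl1, Cxcl2, Cxcl5 and Ppbp bind Cxcr2 and draw neutrophils, and the first 2 are classical early targets of the transcription factor NF-kB. Cxcl10 binds Cxcr3 on activated lymphocytes and is induced by interferons as well as by NF-kB. Cxcl16 is made as a transmembrane protein that is shed by Adam10 and binds Cxcr6, Cxcl12 binds Cxcr4 and the scavenging receptor Ackr3, and Cxcl14 is a tissue-resident chemokine of the epithelium and brain. In brain these ligands come from several sources, among them microglia, astrocytes, endothelium and the meninges.

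Slices came from brains of adult C57BL/6J mice of both sexes and were treated on culture day 7, so that every group, controls included, had been through slicing and a week of culture. Batch 1 held 60 libraries, 10 in each of 6 groups at 24 h: untreated controls, heme-albumin at 12.5, 50, 200 or 400 μM, and hemeHpx at 200 μM. It had no group with albumin or hemopexin alone, so effects of heme and of its carrier protein cannot be told apart there. The libraries of batches 2 and 3 that had a group were taken at 24 h or 48 h: controls (10 and 9), Hb at 200 μM (10 and 10), Hb at 400 μM (10 and 10), HbHp at 200 μM (8 and 8), HbHp at 400 μM (4 and 5) and Hp at 400 μM (12 and 11). The heme, Hb and carrier proteins were added to the medium, and the cultures hold no circulating blood. Nothing in the sources used here says which libraries came from the same animal, so the tests measure the spread between libraries, which may in part be technical. Library totals ran from 11038484 to 44199060 counts in batch 1, from 32626873 to 54174784 in batch 2 and from 15587938 to 38839614 in batch 3. Batch 1 was never compared directly with the other batches. The markers of microglia, astrocytes, neurons and oligodendrocytes were all detected. In bulk tissue, fewer cells of a type and less RNA per cell cannot be told apart.

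The stretch of DNA just before the start of 6 of the 8 genes could be read from RefSeq (GRCm38.p6, a build older than the GRCm39 named in the submitters' notes), and 4 are printed because their genes carried the responses: Cxcl1, Cxcl2 and Cxcl10 to heme-albumin, and Ppbp to hemeHpx and the hemoglobin treatments. Each is the 250 bases that end at the transcription start, 5′ to 3′ on the strand of the gene, with the letters of the motifs searched in capitals. The windows were chr5:90890995-90891244 (+) for Cxcl1, chr5:90903649-90903898 (+) for Cxcl2, chr5:92348890-92349139 (−) for Cxcl10 and chr5:90768268-90768517 (+) for Ppbp.
Cxcl1: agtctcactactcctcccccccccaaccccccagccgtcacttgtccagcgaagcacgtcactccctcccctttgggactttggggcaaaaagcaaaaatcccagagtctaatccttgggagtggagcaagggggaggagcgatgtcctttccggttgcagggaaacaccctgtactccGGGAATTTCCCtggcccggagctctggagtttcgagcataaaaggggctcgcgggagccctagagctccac
Cxcl2: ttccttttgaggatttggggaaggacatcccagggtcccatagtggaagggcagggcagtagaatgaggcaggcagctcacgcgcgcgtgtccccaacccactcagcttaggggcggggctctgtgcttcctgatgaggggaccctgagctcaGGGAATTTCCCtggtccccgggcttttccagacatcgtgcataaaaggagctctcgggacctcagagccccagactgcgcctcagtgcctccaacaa
Cxcl10: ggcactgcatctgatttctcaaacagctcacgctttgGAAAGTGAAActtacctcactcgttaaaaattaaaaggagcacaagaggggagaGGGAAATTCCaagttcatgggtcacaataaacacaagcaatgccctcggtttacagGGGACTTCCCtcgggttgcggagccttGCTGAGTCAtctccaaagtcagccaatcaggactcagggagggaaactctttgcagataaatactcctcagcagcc
Ppbp: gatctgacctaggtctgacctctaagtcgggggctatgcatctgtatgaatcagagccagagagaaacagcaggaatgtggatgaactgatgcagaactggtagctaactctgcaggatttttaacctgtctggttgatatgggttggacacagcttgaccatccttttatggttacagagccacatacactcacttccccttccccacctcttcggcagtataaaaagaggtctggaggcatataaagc

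The Cxcl1 and Cxcl2 windows share the 10 letters GGGAATTTCC, which begin 71 bases before the start of Cxcl1 and 97 bases before that of Cxcl2, and the neighbouring paralog Cxcl3 has them too, from 73 bases before its start. Searched on both strands of all 32851 RefSeq windows of the same 250 bases, this run, taken from the Cxcl1 window after the windows had been read, occurred in 28, or 0.0852%. The looser NF-kB consensus, which overlaps it, matched 3.9% of windows and was found in Cxcl1, Cxcl2, Cxcl3 and at 2 places in Cxcl10, beginning 159 and 103 bases before the start. An interferon-stimulated response element (GAAA, any 2 bases, GAAA; in 2.98% of windows) lay from 213 bases before the start of Cxcl10 and from 172 before that of Cxcl14, and an antioxidant response element core (TGACNNNGC, in 10.2%) from 76 bases before the start of Cxcl10 on the opposite strand. Ppbp and Cxcl12 matched none of these. A match says that the letters are there, and the counts below do not show which factor was bound.

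Per kilobase of exon, the 8 genes spanned a wide range in untreated slices of batch 1. Cxcl14 stood highest at 23.7 CPM/kb (counts-per-million value, CPM, divided by exon length, mean of 10 libraries), followed by Cxcl5 at 14.9, Cxcl1 at 8.95, Cxcl16 at 7.86, Cxcl12 at 3.03 and Cxcl10 at 2.34. Cxcl2 at 0.574 and Ppbp at 0.333 were close to silent. From here on, levels are in CPM, which compares a gene with itself across libraries.

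Cxcl1 and Cxcl2, the paired neutrophil attractants, rose step by step with heme-albumin. Cxcl2 ran from 0.364 to 2.17 CPM in controls, with a median of 1.11, and the medians were 1.70 at 12.5 μM, 2.48 at 50 μM, 3.11 at 200 μM and 11.4 at 400 μM. The 10 libraries at 400 μM ran from 1.94 to 42.3 CPM, and 9 of them lay above the highest control. Cxcl1 ran from 8.0 to 25.2 CPM in controls with a median of 15.3, and its medians were 18.1, 23.2, 29.1 and 39.6 CPM at the 4 rising doses. At 400 μM it ran from 15.7 to 96.6 CPM, and 8 of 10 libraries lay above the highest control. The treated libraries were thus far more scattered than the controls, and the groups overlapped in their lower part.

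**Figure D1:**
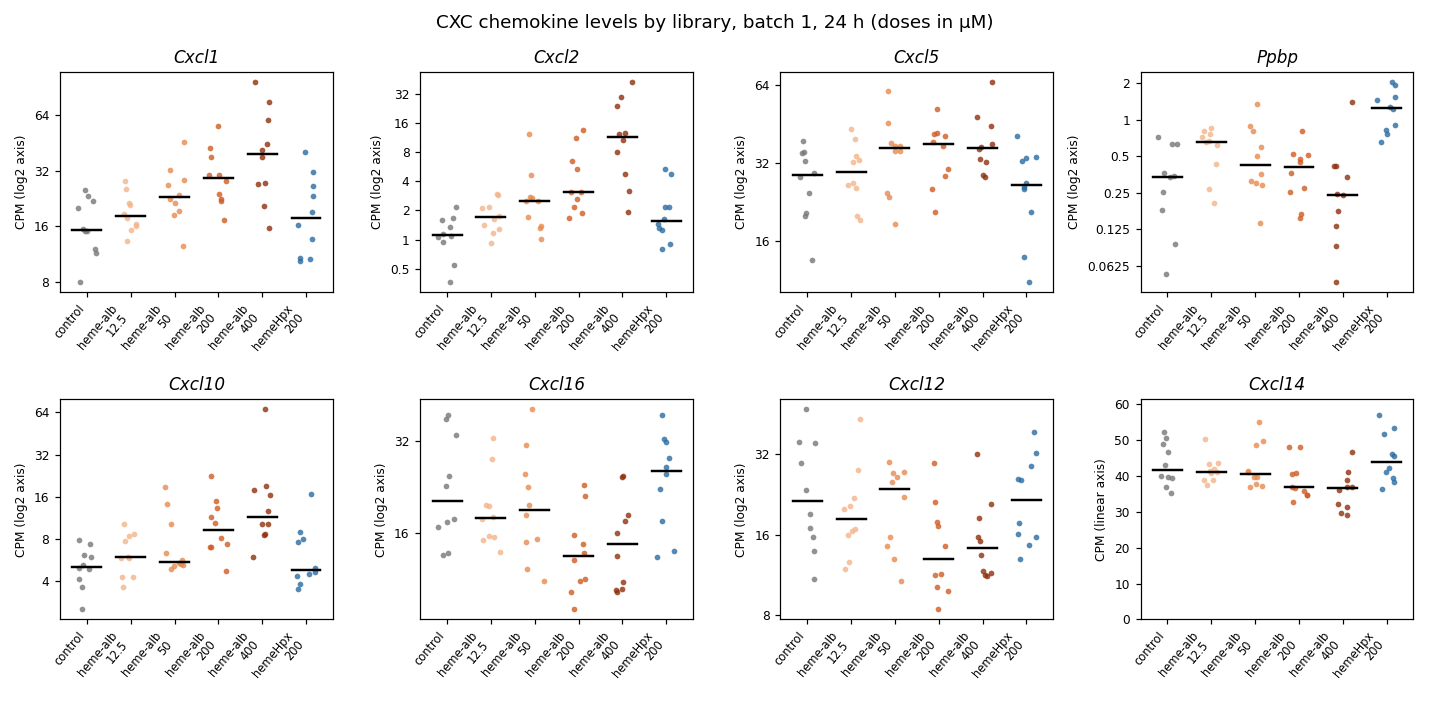
Level of each of the 8 CXC chemokines in batch 1, 1 panel per gene, with CPM on the y axis (log scale, except a linear scale for Cxcl14) and the 6 groups of 10 libraries on the x axis. Points are libraries and bars are medians: Cxcl1 and Cxcl2 climb from control to 400 μM heme-albumin, Cxcl10 is higher at 200 and 400 μM, Cxcl16 is lower at 200 and 400 μM, and Ppbp is high with hemeHpx, where 9 of 10 libraries exceed every control.

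On the log2 scale Cxcl2 differed from control by 2.05 (SE 0.47, adjusted p = 0.00158, edgeR quasi-likelihood test with Benjamini-Hochberg adjustment over all genes, as in all tests that follow) at 200 μM and by 3.59 (SE 0.48, adjusted p = 2.64e-08) at 400 μM. Cxcl1 differed by 0.89 (SE 0.26, adjusted p = 0.0147) at 200 μM and by 1.41 (SE 0.26, adjusted p = 2.28e-05) at 400 μM. At 50 μM the differences were 1.41 (SE 0.47, adjusted p = 0.209) for Cxcl2 and 0.58 (SE 0.26, adjusted p = 0.379) for Cxcl1, which did not pass. Each doubling of the heme-albumin dose added 0.54 (SE 0.08) to log2 Cxcl2 and 0.22 (SE 0.05) to log2 Cxcl1, with adjusted p-values of 1.40e-06 and 0.000314 in the edgeR fit.

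Cxcl10, the ligand of Cxcr3, rose at the higher doses. It ran from 2.52 to 7.82 CPM in controls with a median of 5.09, and its median was 5.93 CPM at 12.5 μM, 5.53 CPM at 50 μM, 9.31 CPM at 200 μM and 11.5 CPM at 400 μM. At the highest dose 9 of 10 libraries lay above all controls, and replicate 9 reached 67.5 CPM. The log2 difference was 1.02 (SE 0.33, adjusted p = 0.0295, edgeR) at 200 μM and 1.74 (SE 0.33, adjusted p = 3.83e-05) at 400 μM, and the slope per doubling was 0.27 (SE 0.06, adjusted p = 0.000636). The annotated Cxcl10 gene overlaps Art3, so reads in the shared stretch could be assigned to either. Of a list of 11 other interferon-responsive genes, none rose and 2 fell at 400 μM, among them Ifit2 by 0.44 (adjusted p = 0.00275, edgeR). These 2 of 11 compare with 14.3% of all genes that fell at that dose, which is close. The median log2 difference of that list was -0.29, against -0.01 over all genes tested.

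Cxcl5, the other Cxcr2 ligand with a sizeable level, moved little. It ran from 13.6 to 39 CPM in controls with a median of 28.8, and its median was 38.1 CPM at 200 μM and 36.7 CPM at 400 μM. The difference at 400 μM was 0.49 (SE 0.19, adjusted p = 0.04996, edgeR), which is at the very edge of the threshold, and 3 of the 10 libraries lay above the highest control.

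Cxcl16, the transmembrane chemokine, went the other way. It ran from 13.6 to 39.1 CPM in controls with a median of 20.3, and its median was 13.5 CPM at 200 μM and 14.8 CPM at 400 μM, with 5 of 10 libraries below the lowest control at each of these doses. It fell by 0.72 on the log2 scale (SE 0.23, adjusted p = 0.0235, edgeR) at 200 μM and by 0.59 (SE 0.22, adjusted p = 0.0390) at 400 μM. Its gene overlaps Zmynd15 in the annotation. The summed level of 6 microglia markers moved with it: the range was 306.5 to 1059 CPM in controls, 209.3 to 485.1 at 200 μM and 196.7 to 606.6 at 400 μM, and 5 of the 6 markers fell at 200 μM, among them Cx3cr1 by 1.36 and Tmem119 by 1.1. At 400 μM 3 of 6 fell. Of all genes 6.60% fell at 200 μM and 14.3% at 400 μM. The part of microglial RNA in the Cxcl16 difference was not tested.

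Cxcl12, which retains Cxcr4-bearing cells in tissue, had a median of 21.3 CPM in controls (10.9 to 47.2), 13 CPM at 200 μM and 14.3 CPM at 400 μM. Its log2 differences of -0.70 (SE 0.25, adjusted p = 0.0501, edgeR) and -0.61 (SE 0.25, adjusted p = 0.0567) lay just outside the threshold. The first passed with DESeq2 (adjusted p = 0.0332) and with a filter at a mean of 1 CPM (adjusted p = 0.0452, edgeR), and the second with DESeq2 (adjusted p = 0.0434). Cxcl14 was the steadiest member. It ran from 35.3 to 52.2 CPM in controls with a median of 41.6, against a median of 36.5 CPM at 400 μM, where it fell by 0.27 (SE 0.09, adjusted p = 0.0140, edgeR).

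Counted over the 8 members, none passed at 12.5 μM, where 0.0450% of all 15554 tested genes did, and none passed at 50 μM, where 0.463% did. Unadjusted edgeR p-values were under 0.05 for 1 member at 12.5 μM and for 2 at 50 μM, and DESeq2 called 0 at both doses. At 200 μM 3 members rose, against 6.98% of all genes, and 1 fell, against 6.60%. At 400 μM 4 rose, against 14.7%, and 2 fell, against 14.3%. The slope passed for 4 members, against 23.1% of all genes: Cxcl1, Cxcl2, Cxcl10 and, with a fall of 0.04 per doubling, Cxcl14. Other genes of an NF-kB-responsive list rose in part with the chemokines: 1 of 11 tested passed at 200 μM, Ptgs2 (prostaglandin synthase) at 1.54, and 6 of 11 at 400 μM, led by Ptgs2 at 2.73, Il6 at 1.10 and Tnfaip3 (a feedback inhibitor of NF-kB) at 0.83, against the same 6.98% and 14.7% of all genes. The median of that list at 400 μM was 0.37, against -0.01 over all genes.

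HemeHpx at the same 200 μM gave another pattern. Ppbp, the platelet basic protein that is processed into a neutrophil attractant, ran from 0.0531 to 0.721 CPM in controls, which is 1 to 10 reads a library, with a median of 0.340. In the 10 hemeHpx libraries it ran from 0.657 to 2.06 CPM with a median of 1.26, and 9 of them lay above the highest control, whereas at 200 μM heme-albumin its median was 0.407 CPM. The log2 difference from control was 1.87 (SE 0.38, adjusted p = 0.00673, edgeR), and Ppbp was the 1 member called, against 8.20% of all genes. DESeq2 gave no adjusted p for Ppbp here and called 0 members.

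**Figure D2:**
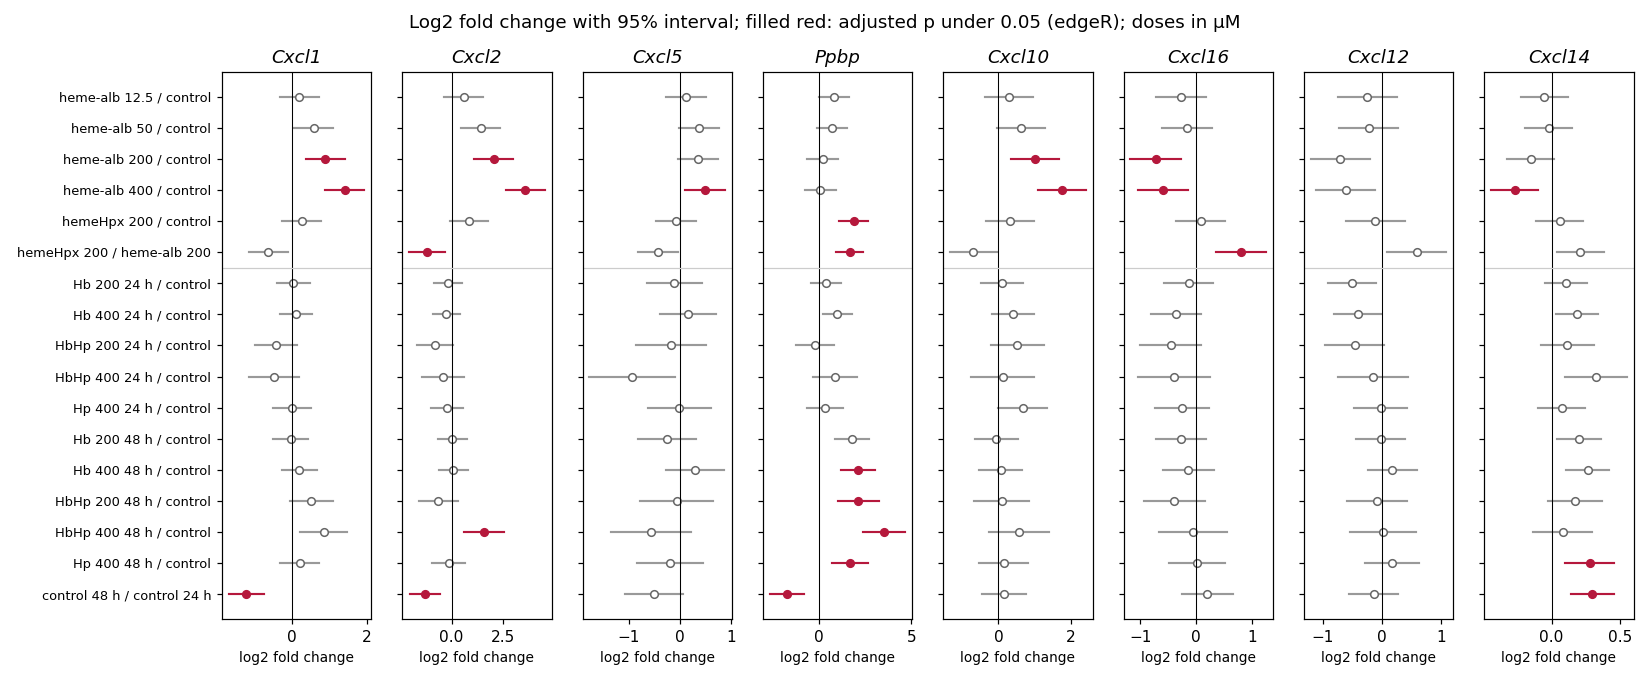
Log2 fold change of each of the 8 CXC chemokines (x axis) in 17 comparisons (y axis: treatments against their own controls, hemeHpx against heme-albumin, and control at 48 h against 24 h), with 95% confidence intervals from edgeR, filled where the adjusted p was under 0.05. Cxcl1, Cxcl2 and Cxcl10 stand to the right with heme-albumin at 200 and 400 μM, and Ppbp with hemeHpx and in 4 of the 5 comparisons at 48 h.

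The other 7 members did not pass against control with hemeHpx. The intervals of the log2 difference were -0.24 to 0.79 for Cxcl1, -0.10 to 1.79 for Cxcl2, -0.33 to 0.98 for Cxcl10 and -0.36 to 0.52 for Cxcl16, so that a moderate rise of Cxcl2 is within what the data allow. Set directly against heme-albumin at 200 μM, Cxcl2 was lower with hemeHpx by 1.21 (log2 difference -1.21, SE 0.43, adjusted p = 0.0338, edgeR), Cxcl16 was higher by 0.80 (SE 0.22, adjusted p = 0.00776) and Ppbp was higher by 1.67 (SE 0.36, adjusted p = 0.000808). These 3 of 8 compare with 25.9% of all genes. Cxcl1 differed by -0.61 (SE 0.25, adjusted p = 0.0636) and Cxcl10 by -0.69 (SE 0.32, adjusted p = 0.0981), which did not pass. With the replicate codes of the library names as a block, they were -0.67 (adjusted p = 0.00494, edgeR) and -0.78 (adjusted p = 0.0306). All 8 members passed in that fit, but whether libraries of a code share an animal is not stated. Between the same groups 5 of 6 microglia markers were higher with hemeHpx, where 25.9% of all genes differed in either direction, and their summed level ran from 333.1 to 837.1 CPM. Their part in the Cxcl16 difference was not tested.

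Pf4, another platelet chemokine and the neighbour of Ppbp on chromosome 5, was abundant in all groups. In batch 1 it ran from 13.3 to 51.6 CPM in controls and from 35.7 to 68.8 CPM with hemeHpx, a log2 difference of 0.59 (SE 0.18, adjusted p = 0.0404, edgeR). Of 5 markers of platelets and megakaryocytes, 3 could be tested and none passed against control. The summed level of the 5 ran from 17.5 to 28.6 CPM in controls and from 25.2 to 33.8 CPM with hemeHpx. It was nearly all Gp1bb (mean 16.1 CPM in controls) and Itga2b (7.19), so it says little of the others. Treml1 (mean 0.32 CPM in controls and 0.48 with hemeHpx), Gp9 (0.015 and 0.028) and Gp6 (0 and 0.029) added little. A platelet share in the Ppbp and Pf4 differences was not tested. Cxcl3, the close paralog of Cxcl1 and Cxcl2, ran from 0 to 0.273 CPM in controls and from 0.0451 to 6.43 CPM at 400 μM heme-albumin, a difference of 3.04 (SE 0.71, adjusted p = 0.000776, edgeR). Reads that fit more than 1 of these paralogs make such a low level uncertain. Cxcl13 passed the filter on low counts but not the test in any comparison, and Cxcl9, Cxcl11, Cxcl15 and Cxcl17 were too low to be tested.

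The receptors of the neutrophil attractants were nearly absent from the slices. Cxcr1 had at most 2 reads in any of the 60 libraries of batch 1 and Cxcr2 at most 2, and in the grouped libraries of batches 2 and 3 the largest counts were 4 and 7. Cxcr5 and Cxcr6 were too low to be tested as well, and Cxcr3 had a mean of 0.241 CPM in batch 1 controls. Cxcr4 was well expressed at a mean of 30.9 CPM in those controls and fell with heme-albumin, by 0.32 (SE 0.10, adjusted p = 0.0269, edgeR) at 200 μM and by 0.37 (SE 0.10, adjusted p = 0.00424) at 400 μM. Ackr3, which takes up Cxcl12, had a mean of 16.2 CPM and was higher by 0.47 (SE 0.15, adjusted p = 0.0147) at 400 μM. Markers of neutrophils were low: the 6 genes together had a median of 7.11 CPM in controls and 6.67 CPM at 400 μM, and 2 of 6 could be tested. One of them, the inflammatory S100a8, was higher at 400 μM by 0.72 (SE 0.22, adjusted p = 0.00894, edgeR). The other, Csf3r, differed by -0.42 (SE 0.27, adjusted p = 0.245), which did not pass. Of 5 tested genes that cut or release CXC ligands, Adam10 fell by 0.18 and Adam17 by 0.12 at 400 μM, where 14.3% of all genes fell.

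In batches 2 and 3, several members differed between control slices at 24 h and at 48 h. The controls of these times shared only some of the replicate codes in their library names. Between 24 h and 48 h Cxcl1 fell from a median of 17.9 CPM (10.1 to 49.1) to 9.61 CPM (5.17 to 15.7), a log2 difference of -1.20 (SE 0.23, adjusted p = 0.000916, edgeR). Cxcl2 fell from 1.42 CPM (0.656 to 5.68) to 0.949 CPM (0.314 to 1.45), a difference of -1.30 (SE 0.36, adjusted p = 0.0209). Ppbp fell from 0.477 CPM (0.263 to 2.79) to 0.213 CPM (0 to 0.682), a difference of -1.74 (SE 0.47, adjusted p = 0.0173). Cxcl14 rose from 42.4 CPM (32.9 to 48.7) to 50.5 CPM (41.8 to 58.6), a difference of 0.30 (SE 0.08, adjusted p = 0.0173). These 4 of 8 compare with 4.50% of the 16473 genes tested. Il6 and Csf3 of the NF-kB-responsive list also fell, by 1.65 and 1.61. One control at 24 h, replicate 8, was the highest of its group in Cxcl1, Cxcl2 and Ppbp and reached 106 CPM of Cxcl12. Without it the difference was -0.93 (adjusted p = 0.00887, edgeR) for Cxcl1 and 0.27 (adjusted p = 0.0438) for Cxcl14, while Cxcl2 at -0.76 (adjusted p = 0.189) and Ppbp at -1.10 (adjusted p = 0.146) no longer passed. This alternative was chosen after seeing the data. In batch 3 by itself, with 2 controls at each time, no member passed. The Cxcl1 difference there was -0.72, and that of Ppbp turned to 0.69 (adjusted p = 1.0). With the replicate codes as a block, Cxcl2 (-1.26, adjusted p = 0.128, edgeR) and Cxcl14 (0.24, adjusted p = 0.218) no longer passed. The fall of Cxcl1 was the firmest of the 3, since it alone of them passed without control replicate 8.

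These batches carry a second code in the library names, E1 or E2, whose meaning is not given in the sources used here. E2 libraries had higher Cxcl5 (1.11), Cxcl12 (0.94) and Cxcl16 (1.18) and lower Cxcl1 (-0.28) and Cxcl2 (-0.55) on the log2 scale, in a series in which 68% of all genes differed between the codes. All HbHp libraries were batch 3 and E2, whereas 6 of 10 controls at 24 h and 6 of 9 at 48 h were batch 2 and E1, and just 1 control at each time was batch 3 and E2. The tests therefore held batch and code as terms, and the HbHp differences rest on that adjustment.

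**Figure D3:**
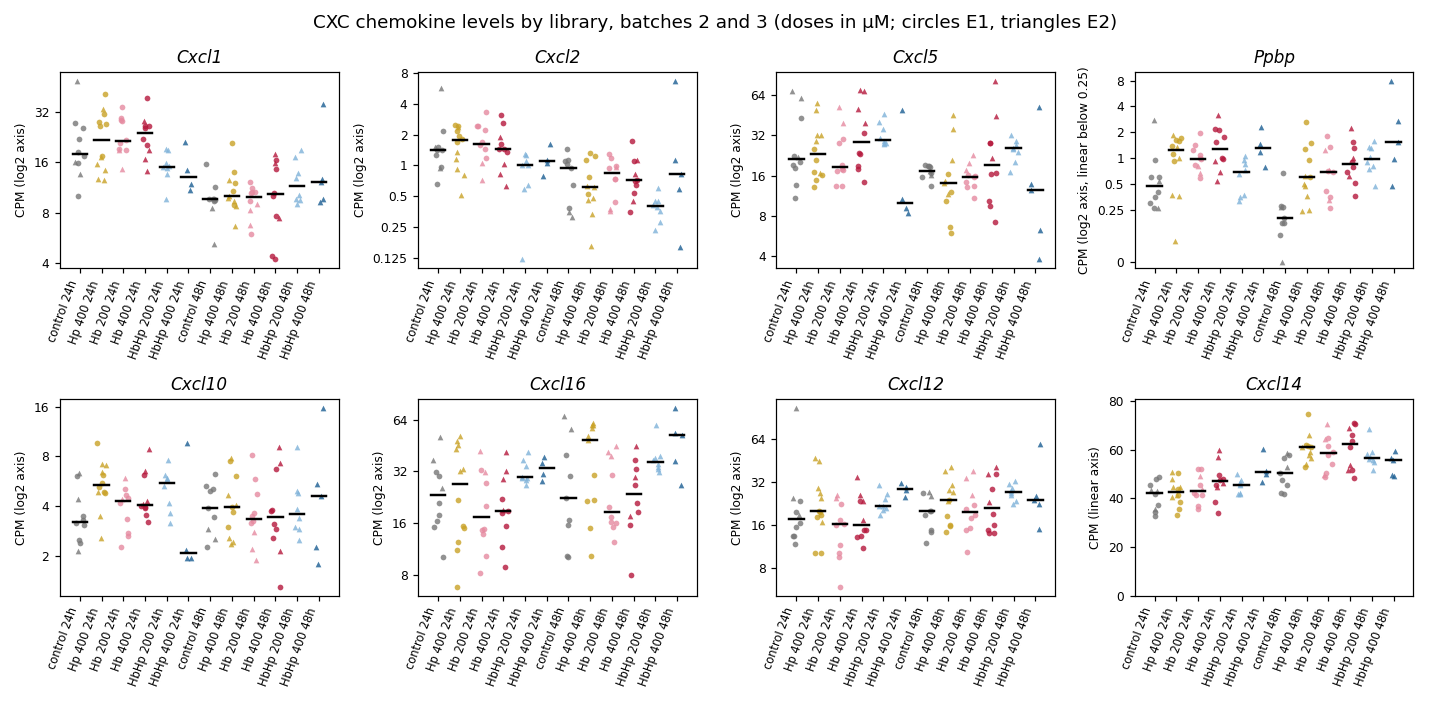
Level of each of the 8 CXC chemokines in batches 2 and 3, 1 panel per gene, with CPM on the y axis (log scale, but linear for Cxcl14 and below 0.25 for Ppbp) and the 12 groups of 4 to 12 libraries on the x axis, 24 h before 48 h. Points are libraries, circles for E1 and triangles for E2, and bars are medians: Ppbp lies near 0.213 CPM in controls at 48 h and higher in every treated group at that time, and 1 library of HbHp at 400 μM and 48 h stands above its group in most panels.

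At 24 h no member passed with any of these treatments. The background was 0.0971% of genes for Hb at 200 μM, 0.522% for Hb at 400 μM, 1.93% for HbHp at 200 μM, 5.15% for HbHp at 400 μM and 0.704% for Hp at 400 μM. Unadjusted edgeR p-values were under 0.05 for 1, 3, 0, 2 and 0 members in that order, and DESeq2 called 0 in each. The median of Cxcl2 was 1.63 CPM with Hb at 200 μM and 1.44 CPM at 400 μM, against 1.42 CPM in controls. The interval of its log2 difference at 400 μM was -0.92 to 0.40, and that of Cxcl1 was -0.32 to 0.55. Ppbp had a median of 1.27 CPM (0.551 to 3.15) with Hb at 400 μM, against 0.477 CPM in controls, a difference of 1.0 (SE 0.40, adjusted p = 0.461, edgeR). Without control replicate 8 that difference was 1.73 (adjusted p = 0.00750) and passed. Ppbp at 24 h was thus called or not depending on 1 control library. Heme-albumin at 400 μM and Hb at 400 μM were run in separate batches, so the 3.59 and the -0.26 of Cxcl2 stand side by side without a test between them. Without control replicate 8 the latter turned to 0.33 (adjusted p = 0.997), and that of Cxcl1 went from 0.12 to 0.42 (adjusted p = 0.774).

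At 48 h the change was in Ppbp. Against controls at a median of 0.213 CPM (0 to 0.682, 0 to 23 reads a library), the median was 0.702 CPM (0.269 to 1.82) with Hb at 200 μM and 0.849 CPM (0.367 to 2.25) at 400 μM. With HbHp it was 0.973 CPM (0.474 to 1.61) at 200 μM, and with Hp by itself 0.610 CPM (0.245 to 2.65). The groups overlapped, since the highest control lay above the lowest library of each treated group. The log2 difference was 1.78 (SE 0.46, adjusted p = 0.0568, edgeR) for Hb at 200 μM, which did not pass, but it became 2.05 (adjusted p = 0.0236) and passed without replicate 8 of the 48 h controls, another library than replicate 8 at 24 h. It was 2.10 (SE 0.46, adjusted p = 0.00475) for Hb at 400 μM, 2.14 (SE 0.55, adjusted p = 0.00468) for HbHp at 200 μM and 1.68 (SE 0.50, adjusted p = 0.0199) for Hp. Ppbp was the 1 member called with Hb at 400 μM, against 0.601% of all genes, and with HbHp at 200 μM, against 11.9%. With Hp, Cxcl14 was higher too, by 0.28 (SE 0.09, adjusted p = 0.0317), and 2 of 8 compare with 10.8%. With Hb at 200 μM 0 members were called, against 0.310%, with 2 at an unadjusted p under 0.05, and DESeq2 called 1. These 4 comparisons share their 9 control libraries, so they are no separate evidence of each other.

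These 3 Ppbp calls rested on fits that included the batch 2 controls. Within E2 libraries the 2 controls had 0 and 0.275 CPM, below all 8 libraries of HbHp at 200 μM, and the log2 difference was 2.99, but it no longer passed. Within batch 3 the 2 controls had 0.275 and 0.682 CPM and the difference was 1.59, which did not pass either. For Hb at 400 μM the differences were 3.46 and 1.97, and for Hp 1.68 and 0.81, all short of the threshold with so few controls. Pf4 was higher at 48 h with Hb at 400 μM (0.58, adjusted p = 0.0328, edgeR), with HbHp at 200 μM (0.54, adjusted p = 0.0401) and with Hp (0.52, adjusted p = 0.0325). The summed platelet markers ran from 27.98 to 34.84 CPM in controls, from 22.24 to 32.52 CPM with Hb at 400 μM, from 21.80 to 33.87 CPM with HbHp at 200 μM and from 24.04 to 33.51 CPM with Hp. Nearly all of that sum was Gp1bb (mean 22.2 CPM in controls at 48 h) and Itga2b (7.68). Treml1 (0.490), Gp9 (0.0507) and Gp6 (0.00436) added little, so the sum says little of them. S100a8 of the neutrophil list was higher in the same 3 comparisons, by 0.75, 0.80 and 0.82 (adjusted p = 0.0396, 0.0187 and 0.0103, edgeR), with Csf3r at -0.07, -0.40 and -0.02. The other neutrophil markers were near 0 in these treated groups. S100a9 and Retnlg had at most 1 read in any library, and Ly6g and Mpo at most 7. The part of platelets or neutrophils in the Ppbp differences was not tested.

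HbHp at 400 μM was held by few libraries, and each is given. At 24 h Cxcl5 was 10.6, 9.21, 8.44 and 49.8 CPM in replicates 1 to 4, so that 3 libraries lay below every control (11 to 68.1) and 1 lay among the highest. Cxcl10 was 2.17, 1.94, 1.92 and 9.72 CPM in the same libraries. The Cxcl5 difference from control was -0.94 (SE 0.42, adjusted p = 0.199) with all 4 libraries and -2.0 (adjusted p = 0.00219, edgeR) without replicate 4. Cxcl14, at 0.32 with all libraries, passed at 0.38 (adjusted p = 0.0389) without replicate 9 of the 24 h controls.

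At 48 h Ppbp was 1.54, 7.92, 0.481, 2.69 and 0.976 CPM and Cxcl2 was 1.12, 6.75, 0.160, 0.592 and 0.826 CPM in replicates 1 to 5. Replicate 2 was far above the rest in Cxcl1 (35.8 CPM against 9.31 to 12.6), in Cxcl3 (6.64 against 0.0321 to 0.233), in Cxcl5 (52.5 against 3.79 to 13.9), and in Tnf (19.3 against 3.63 to 5.18) and Il6 (7.66 against 1.18 to 2.41). With all 5 libraries Ppbp was higher than in controls by 3.54 (SE 0.58, adjusted p = 3.38e-06, edgeR) and Cxcl2 by 1.59 (SE 0.49, adjusted p = 0.0195), and these 2 of 8 compare with 11.9% of all genes. Without replicate 2 the Cxcl2 difference was 0.08 (adjusted p = 0.940), Ppbp remained higher by 2.59 (adjusted p = 0.000986), and Cxcl5 was lower by 1.54 (log2 difference -1.54, adjusted p = 0.00494). The call of Cxcl2 thus rested on 1 library, and without replicate 9 of the 48 h controls the difference was 1.44 (adjusted p = 0.0533). Replicate 2 here and replicate 4 of HbHp at 400 μM and 24 h have the same replicate code in their library names, as do libraries of other groups. Cxcl3 differed by 3.57 (SE 0.74, adjusted p = 0.000313) with all 5 libraries, while in 4 of them its level ran from 0.0321 to 0.233 CPM, against 0.0425 to 0.236 CPM in controls. Of the NF-kB-responsive list 7 of 11 were higher in the 5 libraries together, led by Ptgs2 at 1.57, Il6 at 1.49 and Tnf at 1.17, where 11.9% of all genes differed in either direction. That count includes replicate 2, and none is given without it. Ppbp with HbHp at 400 μM passed also within E2 libraries (4.39) and within batch 3 (2.99). Both of these fits kept replicate 2 and held 2 controls at 48 h.

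Setting the scavenger complexes beside their parts, HbHp and Hb at 200 μM differed in no member, at 24 h (0.607% of genes called) or at 48 h (4.98%), with 0 members at an unadjusted p under 0.05 at either time and 0 called by DESeq2. The interval of the Ppbp difference at 48 h was -0.66 to 1.38 and that of Cxcl1 was -0.01 to 1.10, so neither shows that the treatments act alike. HbHp against Hp at 400 μM called no member at 24 h (0.619% of genes), with 2 at an unadjusted p under 0.05 and 0 by DESeq2. At 48 h Cxcl2 was higher by 1.74 (SE 0.42, adjusted p = 0.0113, edgeR) and Ppbp by 1.86 (SE 0.48, adjusted p = 0.0220), against 1.44% of genes. Without replicate 2 of HbHp, Ppbp differed by 0.91 (adjusted p = 0.394) and Cxcl5 by -1.35 (adjusted p = 0.0417), and without replicate 4 Ppbp differed by 1.86 (adjusted p = 0.0553). At 24 h, without replicate 4, Cxcl5 was lower with HbHp than with Hp by 1.98 (log2 difference -1.98, adjusted p = 0.00438). The change of the effect from 24 h to 48 h passed for no member, either with Hb at 200 μM (0.00% of genes) or with HbHp at 200 μM (0.0121%), although for Ppbp it was 1.38 (SE 0.62, adjusted p = 1.0) and 2.35 (SE 0.66, adjusted p = 0.225). Without control replicate 8 at 24 h these were 0.78 (adjusted p = 1.0) and 1.72 (adjusted p = 0.405). Unadjusted p-values were under 0.05 for 1 and 2 members, and DESeq2 called 0 in both.

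**Figure D4:**
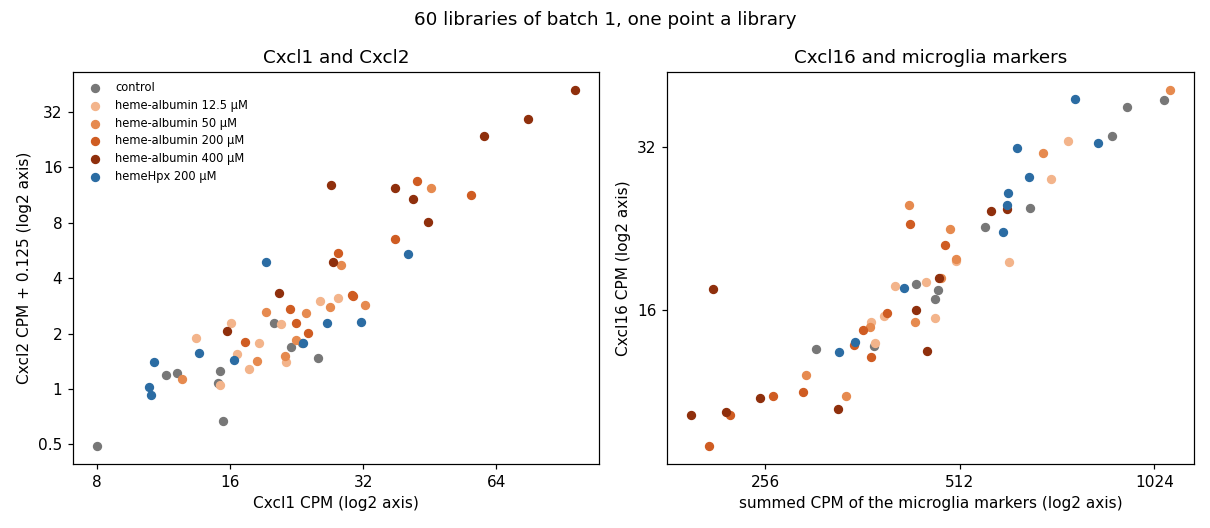
Library-by-library levels in the 60 libraries of batch 1, CPM on both axes (log scale, with a small constant added to Cxcl2), coloured by group. The left panel sets Cxcl2 against Cxcl1 and the right panel sets Cxcl16 against the summed microglia markers. Cxcl1 and Cxcl2 rise together (Pearson r 0.90), and Cxcl16 follows the summed microglia markers (r 0.92).

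Across the 60 libraries of batch 1 the members fell into sets that moved together, given as descriptions since libraries of a group share a treatment. Cxcl1 and Cxcl2 had a Pearson r of 0.90 and a Spearman rho of 0.87, and r was 0.87 without the 2 libraries farthest from the median of Cxcl1 and 0.85 with the group means removed. In the grouped libraries of batches 2 and 3 it was 0.79. Cxcl1 also ran with Cxcl5 (0.81) and Cxcl10 (0.80), but with Ppbp at 0.14, although within groups that pair reached 0.58. In batches 2 and 3 Cxcl1 had 0.43 with Cxcl5, 0.47 with Cxcl10 and 0.49 with Ppbp. With the means of group, batch and code removed, these were 0.67, 0.58 and 0.42, so Ppbp was then the lowest of the 3. Cxcl16 ran with the microglia markers at 0.92 in batch 1 and 0.91 in the later batches, and at 0.90 within the groups of batch 1. Cxcl14 ran with them at 0.81. Cxcl1 ran against them, at -0.43 in batch 1, or -0.19 within its groups, and at -0.71 in the later batches, or -0.70 within groups.

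Among the 14158 genes with a mean of at least 1 CPM in batch 1, those most like Cxcl1 were the monocyte attractant Ccl2 (r 0.95), Cxcl2 and the NF-kB inhibitor Nfkbia (0.87), and those most like Cxcl2 were Ccl2 (0.92), Cxcl1 and Ptgs2 (0.89). Cxcl5 was most like Cxcl1, the mitochondrial superoxide dismutase Sod2 (0.76) and Ccl2 (0.75), and Cxcl10 most like Cxcl1, Ptgs2 (0.80) and the growth factor Ereg (0.80). Cxcl16 lay closest to genes of myeloid cells, Ptpn6 (0.96), Fcgr4 (0.96) and Bcl2a1b (0.95). Cxcl12 lay closest to genes of the extracellular matrix and stroma, Lox (0.92), Serping1 (0.90) and Sparc (0.89), and Cxcl14 to Msrb1 (0.93), Itm2b (0.90) and Htra1 (0.89). Ppbp had no close partner, since Ccl9 at 0.62 was its nearest, followed by Saa1 and Mmp8 at 0.59. In batches 2 and 3, with batch and code means removed, several of these likenesses were much lower: Cxcl10 had 0.24 with Ptgs2 and 0.087 with Ereg, Cxcl2 had 0.41 with Ptgs2, and Ppbp had 0.33 with Ccl9, 0.0073 with Saa1 and 0.41 with Mmp8. The partners of Cxcl16 and Cxcl12 kept values from 0.77 to 0.90 there.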

How the data were processed

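RNA-seq was made from total RNA with a poly(A)-selecting Illumina TruSeq mRNA kit, and per the labels and the submitters' processing notes the deposited values are counts per gene, made by the authors with featureCounts on GRCm39. The aligner and the versions are not given in the sources used here. The counts were whole numbers with no normalization, 1 file for each of 188 libraries. Groups were taken from the treatment tags of 167 libraries (18 groups). The 20 libraries tagged HbHpx at 400 μM but titled hemoglobin-haptoglobin, and 1 titled as a control at 24 h, with the tag nan and 48 in its library name, entered no group. The hemeHpx libraries are titled heme-haptoglobin, but their tag, library name and the study's methods say hemopexin, which was followed. None of 630 pairs of libraries of a group agreed within sampling noise (smallest chi-square per gene 3.65).

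Counts were tested with edgeR 4.0.16 (R 4.3.3, limma 3.58.1): TMM scaling, filterByExpr (smallest count 10, smallest total 15), quasi-likelihood F tests, and Benjamini-Hochberg adjustment over all tested genes with a threshold of 0.05. Fold changes were taken from the edgeR fit with its default prior count, the SE came from the fold change and the square root of its F statistic, and intervals are 95%. Batch 1 (60 libraries) was fitted by itself, and batches 2 and 3 together with batch and library-series terms. Alternatives were DESeq2 1.42.0, RLE scaling, other filters, a robust spread, a replicate block, other terms, subsets, and leaving out libraries. The scripts were tested on simulated data. Depth limits low genes most: Ppbp, Cxcl2 and Cxcl3 rest on few reads a library.

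The members and lists were chosen with earlier results of these data known. Named beside the members were any other CXC ligand or receptor, at most 3 called genes with the largest change per list and comparison, and the 3 genes most like each member in batch 1. Genes outside that rule, such as Csf3r, or Tnf and Il6 by library, were picked after their values were seen. So were the single platelet markers and the neutrophil markers other than S100a8. Some genes of the lists are not reported here by name. Gene names, exon lengths and overlaps came from GENCODE M21 (GRCm38), in which 25602 of 25711 identifiers matched, and promoters from RefSeq (GRCm38.p6), which held 6 of the 8 members.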

Additional observations from a re-analysis of the deposited data

Results flagged for a closer look

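Of 128 combinations of a member and a group of 4 to 10 libraries, 9 held a library set apart from the rest of its group by Dixon's 95% criterion, where chance gives about 1 in 20. In HbHp at 400 μM and 48 h, replicate 2 had 35.8 CPM of Cxcl1, against 9.31 to 12.6 in the others. In HbHp at 400 μM and 24 h, replicate 4 had 49.8 CPM of Cxcl5, against 8.44 to 10.6, and 9.72 CPM of Cxcl10, against 1.92 to 2.17. In controls at 24 h of batches 2 and 3, replicate 8 had 2.79 CPM of Ppbp, against 0.263 to 0.967, and 106 CPM of Cxcl12, against 11.8 to 24.7. In HbHp at 200 μM, replicate 2 at 24 h had 0.12 CPM of Cxcl2, against 0.585 to 1.29, and replicate 1 at 48 h had 59.5 CPM of Cxcl16, against 31.7 to 39.2. In heme-albumin at 400 μM, replicate 9 had 67.5 CPM of Cxcl10, against 5.95 to 19.2, and at 12.5 μM replicate 8 had 50.3 CPM of Cxcl14, against 37.5 to 43.5.

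Among the libraries that were put in no group, some members had a median above the highest control, and these differences were not tested. The 10 libraries tagged HbHpx at 400 μM and 24 h had a median of 4.72 CPM of Ppbp (2.76 to 12.3) and 8.97 CPM of Cxcl10 (3.75 to 15.4). The 10 tagged HbHpx at 400 μM and 48 h had a median of 3.53 CPM of Ppbp (2.16 to 5.31), 7.74 CPM of Cxcl10 (3.22 to 18.4) and 1.6 CPM of Cxcl2 (0.651 to 2.85). The 1 library with the tag nan, titled as an untreated control at 24 h but with 48 in its library name, had 2.84 CPM of Ppbp. This lies above all grouped controls of batches 2 and 3 and above the 10 libraries of Hb at 400 μM and 48 h (0.367 to 2.25).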

How the results depend on the processing

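Of the single-member values, 2171 kept their direction and side of the threshold, 32 passed newly, 39 no longer passed and 1 reversed (Ppbp, control 48 h against 24 h, 0.69 in batch 3 alone). RLE scaling and a robust spread changed no member's call. With DESeq2 the members called went from 1 to 0 for hemeHpx against control and from 0 to 1 for Hb at 200 μM and 48 h. A mean of at least 1 CPM left Ppbp untested and 0 for hemeHpx. With no filter on low counts, Cxcl5 (0.50, adjusted p = 0.0587, edgeR) and Cxcl16 (-0.57, adjusted p = 0.0586) at 400 μM heme-albumin and the Cxcl14 slope (adjusted p = 0.0569) no longer passed. With the 200 μM groups and controls alone, Hb at 200 μM and 48 h called 1. With the batch term only, HbHp at 400 μM called 1 at 24 h and 1 at 48 h, and 0 against Hp at 48 h. With neither term, these were 1, 2 and 0, and HbHp at 200 μM and 48 h called 2. In batch 3 alone 0 were called at 48 h with Hb at 400 μM, HbHp at 200 μM and Hp, 1 with HbHp at 400 μM, 1 with HbHp at 200 μM and 24 h (Cxcl16, -1.08), and 0 between control times. In E2 libraries alone these 48 h counts were 0, 0, 0 and 1, and 1 between control times. The cause of each change was not tested.

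Whether libraries that share a code share an animal is not stated, and not all same-code pairs deviated together, so the codes were not used as pairs. Same-code pairs correlated at a median of 0.19, against -0.01 for other pairs (94 of 169 over 0.1, lowest -0.66), in batch 1 and of 0.06 (124 of 291, lowest -0.61) later, and the best partner shared the code for 30 of 60 libraries in batch 1 and for 17 of those in batches 2 and 3. With the replicate block, members called became 1 at 50 μM heme-albumin, 8 for hemeHpx against heme-albumin (Cxcl1 -0.67, Cxcl5 -0.46, Cxcl10 -0.78, Cxcl12 0.60 and Cxcl14 0.21 passing newly), 1 for Hb at 200 μM and 48 h, 1 for Hp at 48 h, 1 for HbHp against Hp at 48 h and 2 between control times. Cxcl12 at 200 and 400 μM heme-albumin and Cxcl5 at 200 μM also passed with it.

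Leaving out in turn each library of HbHp at 400 μM, the 4 controls of batch 3 and, chosen after seeing the data, control replicate 8 at 24 h (no other control), members called ran from 0 to 1 for Hb at 400 μM and 24 h, Hb at 200 μM and 48 h, HbHp at 400 μM and 24 h and HbHp against Hp at 24 h, from 1 to 2 for HbHp against Hp at 48 h, from 1 to 3 for HbHp at 400 μM and 48 h, and from 2 to 4 between control times, and did not move in the other comparisons these libraries enter.

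Over all genes, counts called moved by more than 1.5 times as follows. In batch 1, 7 genes at 12.5 μM became 14 with DESeq2 and 22 with the block, 72 at 50 μM became 198 with the block, and 1276 for hemeHpx became 277 with no filter, 1926 with DESeq2 and 3706 with the block. At 24 h the lowest and highest counts over alternatives were 0 and 31 for Hb at 200 μM (16 in the report's fit), 10 and 100 for Hb at 400 μM (86), 115 and 1211 for HbHp at 200 μM (318), 322 and 1817 for HbHp at 400 μM (849) and 4 and 232 for Hp (116). At 48 h they were 0 and 73 (51), 2 and 119 (99), 359 and 5150 (1959), 602 and 4300 (1968) and 0 and 2717 (1773) in the same order. They were 0 and 1624 for HbHp against Hb at 24 h (100), 7 and 3427 at 48 h (821), 14 and 298 for HbHp against Hp at 24 h (102), 71 and 554 at 48 h (238), and 0 and 958 between control times (742).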

Other observations

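In the same 20 libraries tagged HbHpx at 400 μM, Cxcl5 went the other way from Ppbp and Cxcl10. Its median was 5.46 CPM (3.26 to 9.37) in the 10 at 24 h and 3.63 CPM (1.41 to 7.85) in the 10 at 48 h, below the lowest control at each time (11 and 13.2 CPM). Cxcl1 had medians of 14.4 and 10.7 CPM and Cxcl16 of 17.7 and 45.7 CPM at 24 h and 48 h. These values are on a scale set over the 128 libraries of batches 2 and 3, and the titles and tags of these libraries name different proteins.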
